A study of Mus musculus with 4 samples.

Results

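The p53 pathway was followed here as 38 genes, namely Trp53 itself, its regulators and genes that p53 is known to switch on directly. They were found by symbol in a table of 32592 genes, and all 38 were present and had enough reads to be tested, among 14890 genes tested in all. Messenger RNA had been sequenced from CCE cells, a 129/Sv mouse embryonic stem cell line grown without feeders in serum medium with leukemia inhibitory factor. A total of 2 libraries were labelled as Eif4a2 knockdown, after infection with hairpins (shRNAs) that target Eif4a2, and 2 as control, after infection with control shRNAs named shLuc and shEV. All cells, controls included, were thus infected, were selected for 3 days in 1 µg/mL puromycin and were collected on day 4.5. The hairpins against Eif4a2 were named sheIF4A2-2 and sheIF4A2-3. The labels do not say which library received which of these hairpins, or which control received which control shRNA. The labels do not say whether the libraries of a group were separate cultures, and the p-values thus rest on a spread between samples that may be technical.

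p53 is a transcription factor that is kept scarce by the ubiquitin ligase MDM2 and its partner MDM4, and that is released when DNA damage, nucleolar stress or oncogene activity interrupts this hold. It then switches on genes for cell cycle arrest, apoptosis, DNA repair and metabolism, together with Mdm2 and other genes that feed back on it. Its activity is set mostly on the protein through stability and modification, rather than on its messenger RNA. In mouse embryonic stem cells p53 protein is abundant, and p53 is known there for promoting differentiation after damage as well as cell death.

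Eif4a2 (ENSMUSG00000022884), the gene that the hairpins target, encodes an RNA helicase of translation initiation. The libraries labelled knockdown 1 and 2 held 753 and 814 normalized counts of it (gene counts scaled to a common effective library size), and those labelled control 1 and 2 held 531 and 379. The targeted transcript thus went against the labels (log2 difference 0.80, SE 0.15, limma adjusted p = 0.014, or 0.0581 without a variance trend). The labels are used here as names, and every direction below compares the libraries labelled knockdown with those labelled control. Values are given in the order knockdown 1 and 2 against control 1 and 2. The libraries held between 4604200 and 13681765 recovered reads, with control 2 the shallowest, where 3 reads were worth 0.679 normalized counts against 0.221 in control 1. The embryonic stem cell markers Pou5f1 and Dppa5a were abundant in all 4 libraries, with at least 1841 and 1428 normalized counts in each. Neither differed past the threshold in limma, while 5 of the 12 such markers fell, as given below.

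Of the 38 genes, 9 rose and 2 fell at a Benjamini-Hochberg adjusted p below 0.05 in limma, and 27 did not pass. Over all genes tested, 10.5% rose and 12.4% fell by the same rule, while among the members 23.7% rose and 5.26% fell. The genes that rose were the arrest genes Cdkn1a and Gadd45g, the death genes Bbc3, Pmaip1, Phlda3, Ei24, Tnfrsf10b and Dram1, and the metabolic gene Dcxr. Those that fell were Pml and Tigar. An unadjusted p below 0.05 in limma, in either direction, was reached by 22 members and by 5773 of the 14890 genes tested. The counts at an unadjusted p given below for single lists are to be read against that share of all genes. The median log2 difference was 0.27 over the members and -0.01 over all genes tested. Members whose libraries labelled knockdown both lay above both controls numbered 24 (63.2%, against 32.1% of all genes tested), and 7 lay below (18.4%, against 34.6%). Leaving out 1 library changed these counts together with those of all genes. Without knockdown 2, 5 members rose and 1 fell, against 1.74% and 2.65% of all genes tested. Without knockdown 1, 9 rose and 1 fell, against 3.3% and 4.39%. Without control 1, 24 rose and 5 fell, against 25.4% and 26.5%, and without control 2, 17 rose and 7 fell, against 21.3% and 24.4%. With library size as the only scaling, which moved the median of all genes by 0.12 on the log2 scale, 13 rose and 1 fell, against 14.5% and 6.69%. These shares describe the members, which were chosen with earlier results of the table known, and no test was made of the list.

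**Figure D1:**
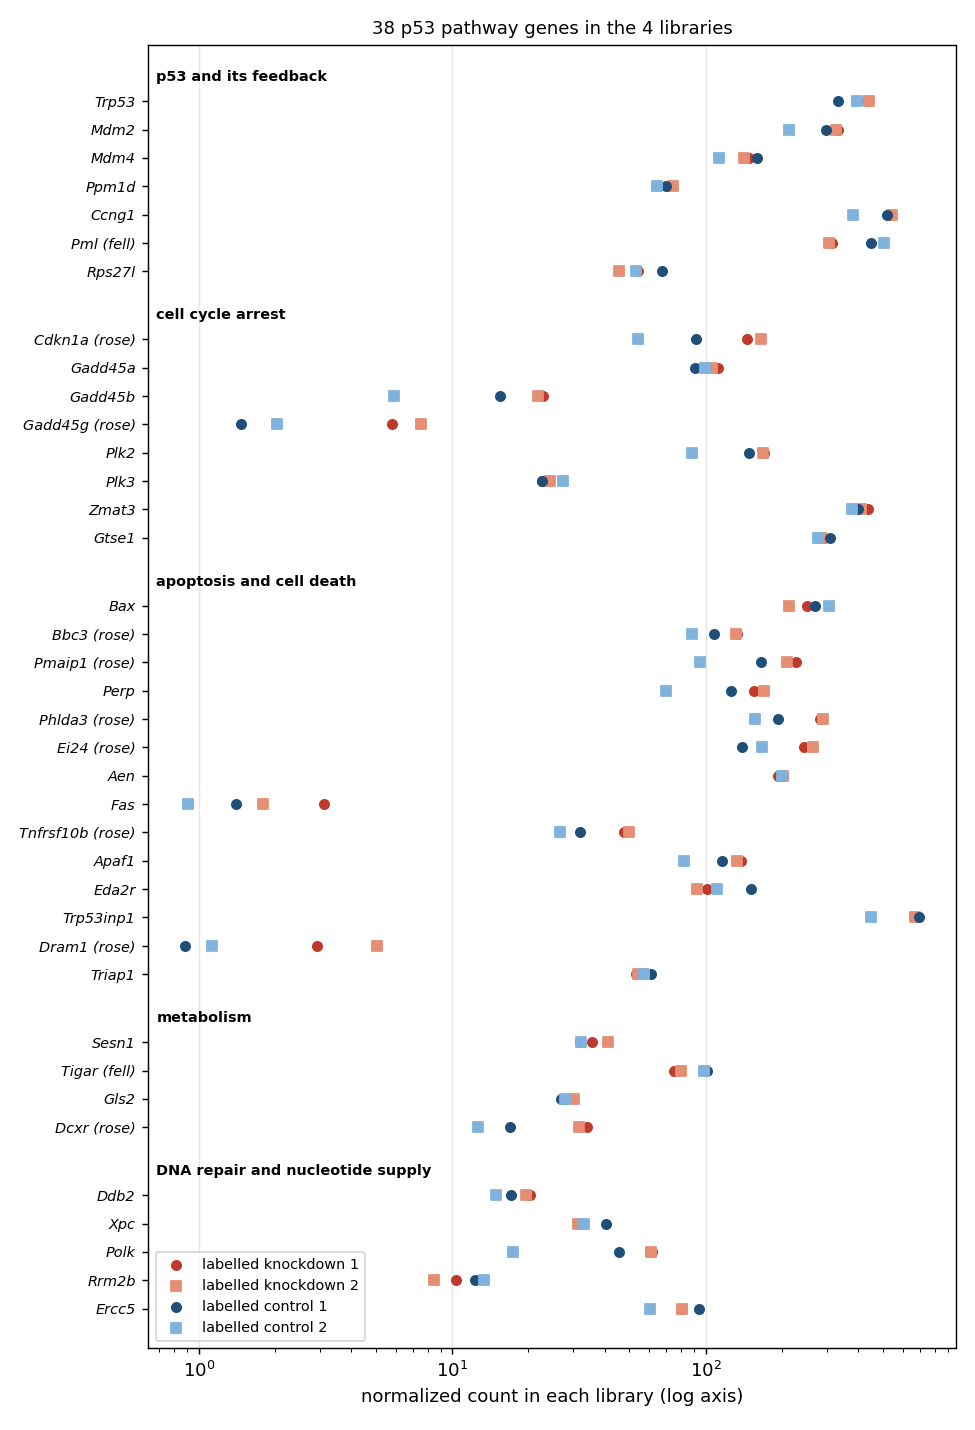
Normalized count of each of the 38 genes (rows, by outcome) in each of the 4 libraries, on a log axis, with a dark red circle and a light red square for the libraries labelled knockdown 1 and 2, and a dark blue circle and a light blue square for control 1 and 2. The red symbols of a row mostly lie close together, while control 2 lies well to the left of control 1 for genes such as Polk and Gadd45b, and both red symbols lie to the right of both blue ones in 24 rows.

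The promoter sequences of the members were searched for the p53 consensus decamer, of which p53 binds a pair (its response element). The decamer has 10 bases, with purines on the left, C and G around a core of A or T, and pyrimidines on the right, and it reads alike on both strands. Promoter windows of 250 bases before to 50 after the start were listed by RefSeq (GRCm38.p6) for 29 of the 38 genes, and Ddb2, Gls2, Perp, Pmaip1, Rrm2b, Tnfrsf10b, Trp53inp1, Xpc and Zmat3 had none. At least 1 decamer stood in 14 of these 29 genes (48.3%), against 9.55% of 27025 genes with a window, and in 39.5% of the 38 windows of the members against 8.36% of all 32851 windows. The decamer was found in 2 of the 7 genes that rose and have a window, 1 of the 2 that fell and 11 of the 20 that did not pass. By outcome it stood in 6 of 7 feedback genes, 3 of 7 arrest genes and 3 of 10 death genes. A match is a description of letters and no sign of binding.

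Within these windows only Cdkn1a, among the 29 members that have one, had a full match with a gap of at most 13 bases. So did 0.074% of all genes with a window. Sequence outside the windows was not searched, so other members may have an element elsewhere. The match lies upstream of the distal of the 2 starts that RefSeq lists for the gene. The 250 bases before that start (chr17:29090729-29090978, GRCm38.p6, plus strand) are shown because this gene is the central arrest target below. The 32 bases in capitals are the stretch that met the strict pattern. The 10 bases directly after them miss the decamer only at the first base, a T where a purine was required. Together with the last 10 capitals they make a near-match without a gap, and which pair p53 binds was not tested.
Cdkn1a: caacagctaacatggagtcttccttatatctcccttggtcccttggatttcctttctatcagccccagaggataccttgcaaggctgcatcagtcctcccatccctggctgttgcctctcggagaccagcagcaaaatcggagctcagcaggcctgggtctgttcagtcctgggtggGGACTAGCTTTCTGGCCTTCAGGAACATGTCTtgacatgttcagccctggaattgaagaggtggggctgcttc
The following 30-base stretches show the decamer in capitals in genes on which the values below turn, namely Ei24, which rose, Pml, which fell, and Trp53, Mdm2, Bax and Gadd45a, which did not pass.
Ei24 (chr9:36797325-36797354, minus strand): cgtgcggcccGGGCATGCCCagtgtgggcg
Pml (chr9:58249911-58249940, minus strand): cccgcatgccGGGCTTGTTTacttgcttgt
Trp53 (chr11:69580274-69580303, plus strand): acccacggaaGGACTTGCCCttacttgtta
Mdm2 (chr10:117710925-117710954, minus strand): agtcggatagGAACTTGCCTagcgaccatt
Bax (chr7:45467080-45467109, minus strand): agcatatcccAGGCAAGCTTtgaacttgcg
Gadd45a (chr6:67037428-67037457, minus strand): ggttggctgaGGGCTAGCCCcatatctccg

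Of the 7 genes of p53 and its feedback, 1 passed the test, and it fell. In limma 0 rose and 1 fell, with 3 at an unadjusted p below 0.05, and 0 rose in edgeR's quasi-likelihood test on recovered reads. The median log2 difference of the group was 0.12. Trp53 (ENSMUSG00000059552, chromosome 11, 69580359 to 69591873, plus strand of GRCm38) stood at 432 and 442 normalized counts against 331 and 395. The groups did not overlap, but the difference did not pass (log2 difference 0.27, SE 0.10, limma adjusted p = 0.0928). It passed with library size as the only scaling (limma adjusted p = 0.026) and with upper-quartile scaling (limma adjusted p = 0.0496). Its log2 difference was 0.14 without control 1 and 0.40 without control 2. Such fits take their spread from the libraries labelled knockdown alone.

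Mdm2 (ENSMUSG00000020184), the ligase that degrades p53 and itself a p53 target, was at 332 and 327 against 299 and 214. Control 1 lay close to the libraries labelled knockdown and control 2 well below them, and the difference did not pass (log2 difference 0.38, SE 0.15, limma adjusted p = 0.103). Ccng1, cyclin G1, which recruits a phosphatase to MDM2, was at 534 and 542 against 519 and 383. Here too the gap to control 1 was small, at a log2 difference of 0.05, and that to control 2 was 0.49.

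Mdm4, the partner of MDM2 that masks the activation domain of p53, lay between the controls, at 149 and 142 against 160.1 and 113. Ppm1d, the phosphatase WIP1 that switches off the damage kinases, was at 70.8 and 74.5 against 69.6 and 64 (limma adjusted p = 0.385). Rps27l, a ribosomal protein-like regulator of MDM2, was at 53.9 and 45.5 against 67.1 and 53, and its groups overlapped. Its reads are uncertain, since ribosomal protein genes have close copies in the genome.

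Pml (ENSMUSG00000036986, chromosome 9, 58218076 to 58249786, minus strand of GRCm38) encodes the scaffold of the nuclear bodies where p53 is acetylated, and went the other way. It stood at 316 and 305 against 447 and 507. The log2 difference was -0.52 from control 1 and -0.70 from control 2, and Pml fell 1.53-fold (311 ± 7.78 against 477 ± 42.1, SD, n = 2 each, limma adjusted p = 0.00706).

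Of 8 cell cycle arrest genes 2 rose, 0 fell in limma (also 0 in edgeR's quasi-likelihood test) and 6 did not pass, with a median log2 difference of 0.37 and 4 genes at an unadjusted p below 0.05. Cdkn1a (ENSMUSG00000023067, chromosome 17, 29090976 to 29100727, plus strand of GRCm38) encodes p21, the inhibitor of cyclin-dependent kinases through which p53 stops the cell cycle. It was at 146 and 165 normalized counts against 91.6 and 54.3. Both controls were lower but lay 1.69-fold apart. Cdkn1a rose 2.18-fold (155 ± 13.6 against 72.9 ± 26.3, SD, n = 2 each, log2 difference 1.12, SE 0.22, limma adjusted p = 0.0148). Against control 1 alone its log2 difference was 0.75 and against control 2 alone 1.50. Fitted in limma with no variance trend, Cdkn1a had an adjusted p of 0.0585.

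The GADD45 proteins bind PCNA and stress kinases and act in arrest and repair, and their 3 genes differed in level and in change. Gadd45a, the member most directly tied to p53, was at 112 and 105 against 90.9 and 99.3 and did not pass (log2 difference 0.19, SE 0.09, limma adjusted p = 0.16). Among the fits that kept all 4 libraries, it passed with library size only (limma adjusted p = 0.0404). Leaving out control 2 gave it a log2 difference of 0.26, with 1 control left. Gadd45b was at 22.9 and 21.8 against 15.4 in control 1 and 5.88 in control 2. Its fitted log2 difference of 1.14 was as large as that of Cdkn1a, yet it did not pass (SE 0.36, limma adjusted p = 0.0612), and it had an adjusted p of 0.00967 in the authors' deposited table. Gadd45g, the lowest of the 3 per kilobase of transcript (3.93 normalized counts per kilobase, against 12.8 for Gadd45b and 83.4 for Gadd45a), was at 5.77 and 7.55 against 1.47 and 2.04. It rose by 1.47 on the log2 scale (SE 0.23, limma adjusted p = 0.00857), from 29 reads in the controls to 162 in the libraries labelled knockdown, which is 4.17 times as many per effective library size (exact 95% bounds 2.80 and 6.43, for counting error alone). Without knockdown 2, Gadd45g did not pass (adjusted p = 0.0658).

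Plk2 and Plk3 are polo-like kinases of the stress response. Plk2 was at 169 and 168 against 148 and 88.5 (limma adjusted p = 0.0962), again with control 2 apart from the rest, and Plk3 was at 22.6 and 24.4 against 22.6 and 27.4, with groups that overlapped. Zmat3, an RNA-binding protein that regulates splicing downstream of p53, was at 436 and 409 against 398 and 379 (limma adjusted p = 0.316). Gtse1, a microtubule-associated protein that shuttles p53 out of the nucleus in G2, was at 292 and 285 against 308 and 277, between the controls.

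Apoptosis and cell death held most of the genes that rose, with 6 of 14, while 0 fell in limma (also 0 in edgeR's quasi-likelihood test) and 8 did not pass. The group's median log2 difference was 0.57. Of the 14 genes, 11 had an unadjusted p below 0.05 in limma in either direction, as had 5773 of the 14890 genes tested. Ei24 (ENSMUSG00000062762, chromosome 9, 36779159 to 36797393, minus strand of GRCm38), a membrane protein of the endoplasmic reticulum with a part in autophagy, was at 245 and 266 against 139 and 167. The controls lay close together and well below, and Ei24 rose 1.67-fold (255 ± 14.9 against 153 ± 19.8, SD, n = 2 each, limma adjusted p = 0.00705). The exons of 10 members overlap those of another gene in the annotation, among them Pml, Cdkn1a, Ei24, Tigar and Gls2 with a gene on the other strand, and reads of such a pair cannot be told apart where counting did not use strand, which is not given in the sources used here.

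Phlda3 (ENSMUSG00000041801), which competes with the kinase AKT for membrane lipids, was at 281 and 289.5 against 192 and 157. It rose 1.64-fold (285 ± 5.83 against 174 ± 25.1, SD, n = 2 each, limma adjusted p = 0.0078). Among members, only Bax had a higher level per kilobase of transcript (236 normalized counts per kilobase over all libraries, against 160.2 for Phlda3).

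Bbc3 and Pmaip1 encode PUMA and NOXA, the BH3-only proteins that set off the mitochondrial route. Bbc3 was at 133 and 131 against 108 and 88.3 and rose 1.35-fold (limma adjusted p = 0.0322). Pmaip1 was at 227 and 209.5 against 165 in control 1 and 95.3 in control 2, and rose 1.73-fold (limma adjusted p = 0.0433). The controls of Pmaip1 thus lay further apart than control 1 lay from the libraries labelled knockdown. Bbc3 and Phlda3, with GC contents of 65.2% and 62.6% in their longest transcript, did not pass after correction for GC content (adjusted p = 0.584 and 0.0752), and Bbc3 had an adjusted p of 0.153 in the fit without knockdown 1 and 0.17 in that without knockdown 2. Over all genes tested, the log2 difference rose with GC content (Spearman's rho 0.269 across genes, which are not independent replicates). Neither Bbc3 (adjusted p = 0.0965) nor Pmaip1 (adjusted p = 0.115) passed when no variance trend was fitted, and Pmaip1 did not pass with all genes kept (adjusted p = 0.066). Against control 1 alone the log2 difference of Pmaip1 was 0.40, and against control 2 alone 1.19.

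Among death receptors, Tnfrsf10b, the mouse receptor of the ligand TRAIL, was at 47.6 and 50 against 31.9 and 26.7. It rose 1.65-fold, with all 4 libraries on the side of their group (limma adjusted p = 0.0105). Without knockdown 2 it did not pass (adjusted p = 0.0877). Fas was scarce, at 3.11 and 1.79 against 1.4 and 0.905 (58 against 23 reads, a ratio of 1.88 with exact 95% bounds of 1.14 and 3.20 for counting error alone), and did not pass (limma adjusted p = 0.122). Eda2r, a receptor of the ectodysplasin family, was on the low side at 101 and 92.1 against 151 and 110.4 (limma adjusted p = 0.0822).

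Dram1, a lysosomal membrane protein that p53 uses to induce autophagy, was at 2.93 and 5.06 against 0.883 and 1.13. It rose by 1.28 on the log2 scale (SE 0.27, limma adjusted p = 0.0193), from 17 to 98 reads, which is 4.31 times as many per effective library size (exact 95% bounds 2.56 and 7.69). Its libraries labelled knockdown were the only pair among the members that lay more than 1.5-fold apart on the log2(value + 1) scale. Without knockdown 2, Dram1 did not pass (adjusted p = 0.204).

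The remaining death genes did not pass. Bax, the pore-forming effector of the mitochondrial route, was at 250.4 and 213 against 269 and 308 (log2 difference -0.32, limma adjusted p = 0.0762), below both controls while its activators Bbc3 and Pmaip1 were above. With GC correction Bax passed, at an adjusted p of 0.0132. Apaf1, the core of the apoptosome, was at 138 and 133 against 116 and 81.9 (limma adjusted p = 0.066), and passed with library size only (adjusted p = 0.0476) and with GC correction (adjusted p = 0.0474). Perp, a desmosomal protein of the plasma membrane, was at 155 and 169.8 against 126 and 69.7 (limma adjusted p = 0.0549), and passed in edgeR's quasi-likelihood test (adjusted p = 0.048). Its adjusted p was 0.0493 under library size scaling and 0.0494 under upper-quartile scaling.

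Trp53inp1, an autophagy and p53-modifying protein, was at 675 and 669.7 against 693 in control 1 and 448 in control 2. Aen, a nuclease of apoptotic cells, was at 194 and 202 against 199.7 and 199, the nearest to equal of all members (log2 difference -0.01, limma adjusted p = 0.911). Triap1, an inhibitor of apoptosis that carries lipids in mitochondria, was at 53.3 and 54 against 60.8 and 57 (limma adjusted p = 0.344).

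Of the 4 metabolic genes, 1 rose and 1 fell, with a median log2 difference of 0.17. Dcxr (ENSMUSG00000039450, chromosome 11, 120725399 to 120727281, minus strand of GRCm38), dicarbonyl and L-xylulose reductase, was at 34.1 and 31.7 against 16.9 and 12.7. Each library labelled knockdown lay well above both controls, and Dcxr rose 2.16-fold (32.9 ± 1.7 against 14.8 ± 3.01, SD, n = 2 each, limma adjusted p = 0.00715). Tigar, a phosphatase that diverts glucose from glycolysis to the pentose phosphate route, was at 74.9 and 80 against 101 and 98.4. It fell 1.29-fold (limma adjusted p = 0.0277) but had an adjusted p of 0.0975 with library size only, 0.0521 with upper-quartile scaling, 0.0846 with no variance trend and 0.0948 after thinning to equal reads. Leaving out knockdown 1 gave Tigar an adjusted p of 0.291, and leaving out knockdown 2 one of 0.202. Sesn1, a leucine-sensing inhibitor of mTORC1, was at 35.7 and 41.3 against 32 and 32.1 (limma adjusted p = 0.161). Gls2, the liver-type glutaminase, was at 28.4 and 30.3 against 26.9 and 27.8, and its exons overlap those of Spryd4 on the other strand.

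None of the 5 genes of DNA repair and nucleotide supply passed in limma (0 rose and 0 fell, 2 at an unadjusted p below 0.05, and 0 in edgeR's quasi-likelihood test), and their median log2 difference was 0.10. Polk, a translesion DNA polymerase, had the widest gap between controls in this group, at 61.5 and 60.8 against 45.6 in control 1 and 17.4 in control 2. Its fitted log2 difference of 1.09 did not pass (SE 0.37, limma adjusted p = 0.0732), while Polk had an adjusted p of 0.0177 in the authors' deposited table. Ercc5, a nuclease of nucleotide excision repair, lay between its controls, at 80.7 and 80.7 against 93.8 and 60.4. Ddb2 and Xpc, which find ultraviolet lesions, were at 20.3 and 19.5 against 17 and 14.9, and at 31.4 and 31.4 against 40.6 and 33. Rrm2b, the p53-inducible subunit of ribonucleotide reductase, was at 10.4 and 8.49 against 12.3 and 13.4 (limma adjusted p = 0.128).

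The control libraries differed from each other more than the libraries labelled knockdown did. Since the labels do not say which control shRNA each received, a difference between control shRNAs cannot be told apart here from other spread. The median absolute log2 difference over the members was 0.287 between the controls and 0.0707 between the libraries labelled knockdown, against 0.198 and 0.0955 over all genes tested. Control 2 was lower than control 1 for 27 of the 38 members (71.1%), against 53.1% of all genes tested. On the log2(value + 1) scale, the controls lay more than 1.5-fold apart for 8 members (21.1%, against 10.4% of all genes tested), namely Cdkn1a, Gadd45b, Plk2, Pmaip1, Perp, Trp53inp1, Polk and Ercc5, which were picked out by their values. All 8 were lower in control 2.

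Counting error is given for 3 of these genes, which were picked for their wide gap, so it is no test of it. Polk had 77 reads in control 2, which gives 13.8 to 21.8 normalized counts (95% exact Poisson interval), against 42 to 49.3 in control 1. Cdkn1a lay between 47.7 and 61.6 in control 2 and between 86.5 and 96.8 in control 1. Gadd45b, with 26 reads in control 2, lay between 3.84 and 8.62 there and between 13.4 and 17.6 in control 1.

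Set against each control in turn, the members were higher on balance against either, and by more against control 2. Both libraries labelled knockdown lay above control 1 for 24 members and below it for 12, and above control 2 for 28 and below it for 8. Over all genes tested these shares were 42.6% above and 46.1% below control 1, and 44.4% and 45.7% for control 2. The median log2 difference of the members was 0.16 against control 1 and 0.40 against control 2, while that of all genes tested was -0.02 and -0.01. Death genes had medians of 0.33 and 0.66, arrest genes 0.22 and 0.54, feedback genes 0.05 and 0.18 and metabolic genes 0.19 and 0.16. Repair genes changed sign with the control, at -0.21 and 0.39.

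**Figure D2:**
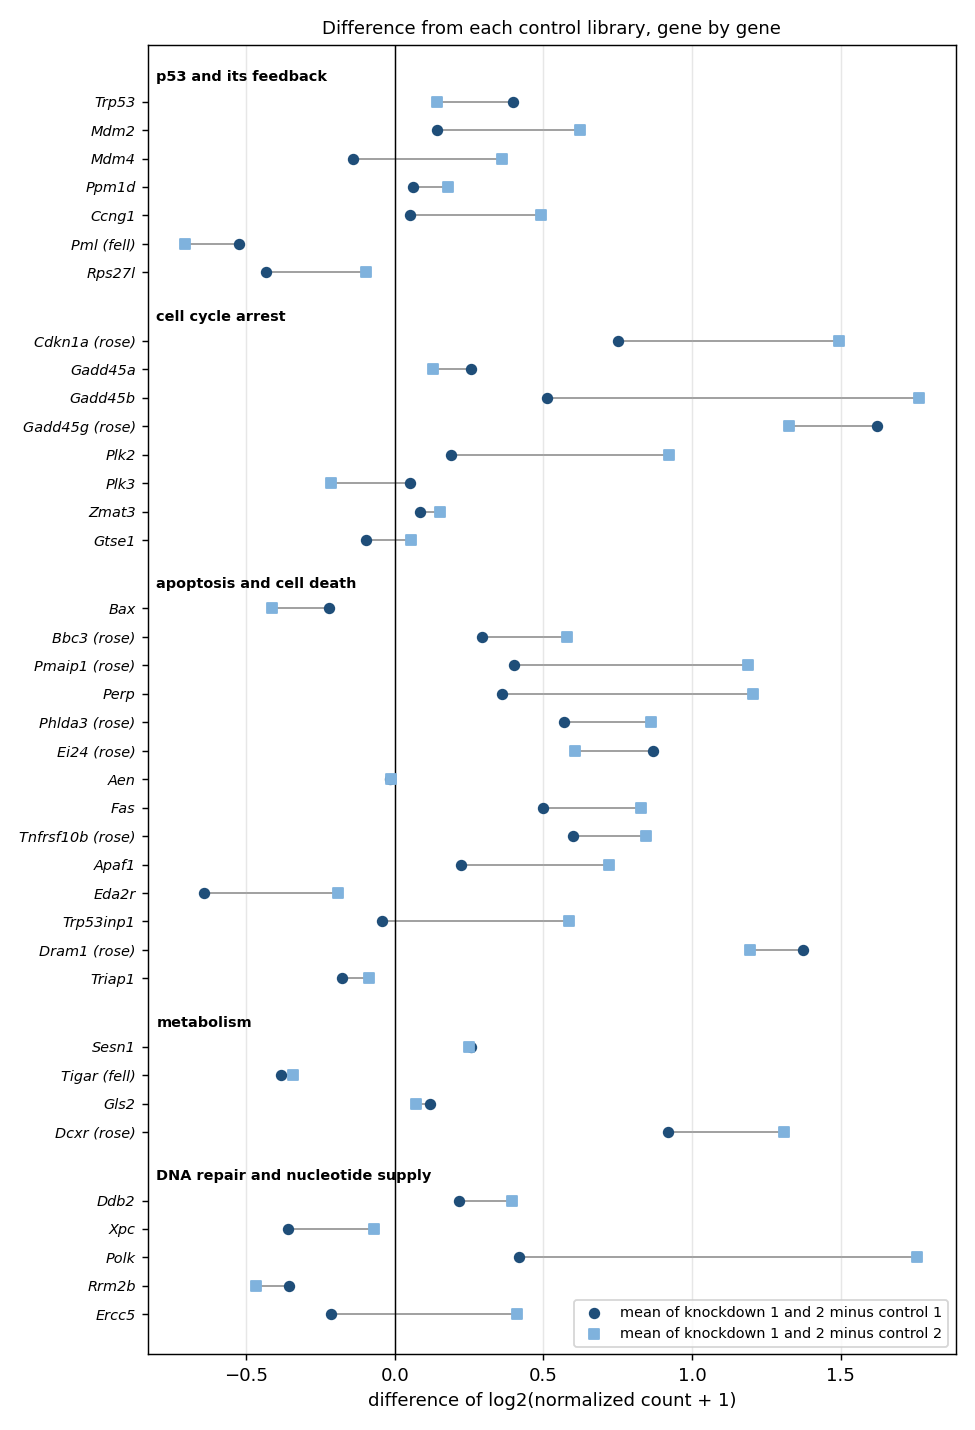
Difference of log2(normalized count + 1) between the mean of the libraries labelled knockdown and each control library, for the 38 genes by outcome, with a circle for control 1, a square for control 2 and a line between them. Squares lie to the right of circles in most rows, by the widest margin for Polk and Gadd45b, while Tigar, Sesn1 and Aen have both points close together, and Mdm4, Plk3, Gtse1, Trp53inp1 and Ercc5 straddle 0.

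The 5 genes whose difference from the controls turned sign between the controls were Mdm4, Plk3, Gtse1, Trp53inp1 and Ercc5. For the 9 genes that rose, the smallest log2 difference from either control was 0.29, that of Bbc3 against control 1. Ei24, Gadd45g and Dram1 were the 3 among these 9 in which control 1, not control 2, was the lower control.

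In the authors' deposited table, which lists all 32592 genes, 13 members were higher and 3 lower at an adjusted p below 0.05, against 5.91% and 5.61% of all rows. All 11 genes that passed in limma passed there too. The others that passed there were Gadd45b, Perp (adjusted p = 0.00754), Apaf1 (adjusted p = 0.0382) and Polk, which were higher, and Eda2r (adjusted p = 0.0289), which was lower. edgeR's quasi-likelihood test on the recovered reads gave 10 higher and 2 lower, against 12% and 13.1% of genes tested, and likewise held all 11, with Perp in addition.

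The rest of the pathway was read from lists of other genes, which together held 16 genes that rose and 11 that fell. Over all genes tested, 10.5% rose and 12.4% fell, and the number tested in each list is given below. With library size only the lists held 23 and 5, against 14.5% and 6.69% of all genes tested. With upper-quartile scaling they held 20 and 8, against 12.6% and 8.93%. Leaving out 1 library moved the counts of the lists together with those of all genes. The pooled counts were not tested against these shares. Of 16 kinases and sensors upstream of p53, 0 rose in limma (3 at an unadjusted p below 0.05 in either direction, and 0 rose in edgeR's quasi-likelihood test) and 1 fell, with a median log2 difference of -0.05 (0.08 with library size only, where 2 rose and 0 fell). The gene that fell was Prkdc, the catalytic subunit of DNA-dependent protein kinase (46 and 44 against 56.9 and 57.9, limma adjusted p = 0.041). Its adjusted p was 0.257 with knockdown 1 left out and 0.407 with knockdown 2 left out. Of 22 ubiquitin ligases, deubiquitinases and cofactors of p53, 3 rose and 2 fell (median -0.03, or 0.09 with library size only). With GC correction 0 rose, where Ppp1r13l had an adjusted p of 0.0541 and Cul9 one of 0.111, and 2 fell. Ppp1r13l, the p53 inhibitor iASPP, rose 1.65-fold (50.6 and 45.2 against 29.9 and 27.4, limma adjusted p = 0.00917), and Cul9, a cytoplasmic ligase that binds p53, rose 1.54-fold. Sirt1, a deacetylase of p53, fell 1.44-fold (107 and 115 against 154 and 167, limma adjusted p = 0.00976), and Huwe1, a ligase of p53, fell 1.26-fold. None of these 4 passed without knockdown 1, with adjusted p from 0.0811 for Ppp1r13l to 0.343 for Cul9, and Sirt1 (adjusted p = 0.0532), Cul9 (adjusted p = 0.22) and Huwe1 (adjusted p = 0.332) did not pass without knockdown 2.

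Of 7 tested genes of the p53 family and of the ARF and ribosomal inhibitors of MDM2, 1 rose and 1 fell (median 0.13). Trp73, the relative of p53 that shares many targets, was at 36 and 43.3 against 20.2 and 11.5 and rose 2.48-fold (limma adjusted p = 0.0133). Npm1, a nucleolar protein that binds ARF and MDM2, fell 1.36-fold (819.7 and 786 against 1063 and 1115, limma adjusted p = 0.014), but had an adjusted p of 0.116 without knockdown 1 and 0.217 without knockdown 2. Trp63 was listed at 0 in all 4 libraries.

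Of 39 tested further p53 targets (41 of 42 were in the table), 11 rose and 2 fell, with a median of 0.24. Steap3, a metalloreductase of endosomes, rose 2.1-fold (58.7 and 69.5 against 29.1 and 30.8, limma adjusted p = 0.00388), Cpt1c 2.08-fold, Ccng2, an atypical cyclin, 1.91-fold, and Slc19a2, a thiamine transporter, 1.54-fold (282 and 287 against 192 and 177, limma adjusted p = 0.00548). Of 30 cell cycle genes that p53 lowers through p21 and the DREAM repressor complex, 5 fell, 1 rose and 24 did not pass, with a median of -0.13. A total of 27 of the 30 had a negative difference with the deposited scaling, while the median was -0.01 with library size only, where 3 fell and 1 rose. With either library labelled knockdown left out, fewer of the 30 passed, and fewer of all genes tested did. The median of the 30 was -0.12 without knockdown 2 and -0.20 without knockdown 1. Mcm6, a subunit of the replicative helicase, fell 1.56-fold (301 and 264 against 426 and 458, limma adjusted p = 0.00708), Cdc25a, the phosphatase that activates cyclin-dependent kinases, 1.6-fold and Nek2, a centrosomal kinase, 1.45-fold. E2f1, a transcription factor of the G1/S transition, rose 1.43-fold (98.7 and 102 against 73.2 and 66.3, limma adjusted p = 0.0118). Without knockdown 2, the adjusted p was 0.0599 for Mcm6, 0.0533 for Cdc25a, 0.124 for Nek2 and 0.129 for E2f1.

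**Figure D3:**
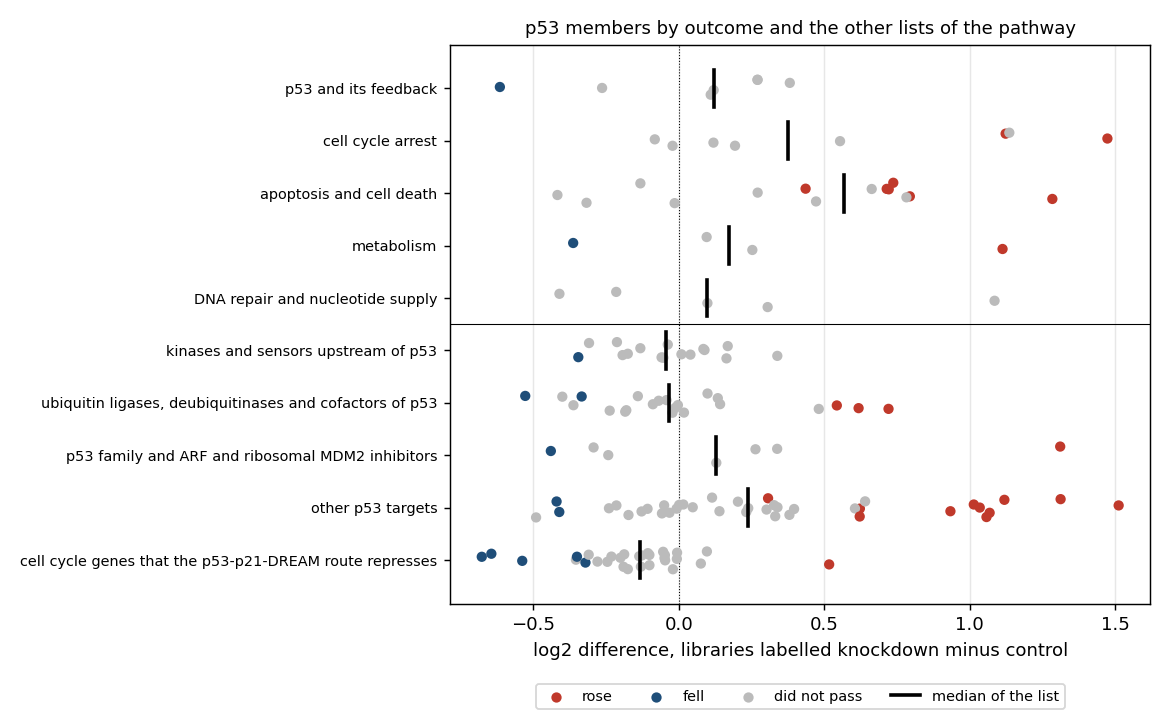
Log2 difference between the libraries labelled knockdown and control for each gene of the 5 outcome groups (above the line) and of 5 other lists of the pathway (below it), with genes that rose in red, genes that fell in blue, others in grey and a black bar at each median. The medians run from 0.57 for death genes to -0.13 for the cell cycle genes, and the 2 lists of upstream regulators are centred near 0.

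Markers of cell identity moved between the same libraries. Of 12 embryonic stem cell markers 5 fell and 0 rose in limma (8 at an unadjusted p below 0.05 in either direction, and 0 rose in edgeR's quasi-likelihood test). Those that fell were Zfp42 (2.09-fold), Klf4 (1.81-fold), Esrrb (1.58-fold), Tfcp2l1 (1.51-fold) and Sox2 (1.41-fold), and 7 did not pass. The summed level of the 12 was 9999 to 10373 in the libraries labelled knockdown and 13155 to 13802 in the controls. Of 9 tested fibroblast markers 4 rose and 1 fell, where 10.5% and 12.4% of all genes tested did. Cald1 rose 2.21-fold. Fn1 fell 1.3-fold, but its adjusted p was 0.0941 with library size only, 0.177 with knockdown 1 left out and 0.312 with knockdown 2 left out, and the summed level of the 14 markers was 1166 to 1171 in the libraries labelled knockdown and 1155 to 1308 in the controls. Without Fn1 the sum was 364 to 394 against 190.3 to 218. Col1a1, a collagen chain, rose 2.42-fold (limma adjusted p = 0.0121), from a low level of 33 and 17 reads in control 1 and 2. Pdgfrb, a growth factor receptor, rose 1.9-fold (limma adjusted p = 0.0137) and Ccn2, a matrix protein, 1.48-fold (limma adjusted p = 0.0152). The 4 tested fibroblast markers that did not pass were Thy1 (log2 difference -0.02), Tagln (-0.03), Acta2 (0.56) and Col1a2 (0.65). Dcn, Lum and S100a4 of the same list were at 0 in all 4 libraries. Of 10 primitive endoderm markers 1 fell and 0 rose in limma (1 at an unadjusted p below 0.05, and 0 rose in edgeR's quasi-likelihood test), and their sum was 88.3 to 89.9 against 120.8 to 147. A total of 7 of the 10 had a positive difference (median 0.09), and without Lama1 the sum was 47.2 to 49.6 against 37.7 to 48.4. Lama1 fell 2.2-fold (41.1 and 40.3 against 83.2 and 98.9, limma adjusted p = 0.0031), and Gata4 was at 14.4 and 13.6 against 12 and 11.3. Of 5 tested neural markers, 1 rose and 2 fell, with a sum of 77.6 to 82.9 against 93.2 to 122 over the 7 in the table, and of 42.2 to 45.4 against 41.4 to 45.9 without Tubb3. Nes rose 1.72-fold (limma adjusted p = 0.0138, or 0.152 without knockdown 2), and Tubb3 was at 35.4 and 37.5 against 47.2 and 80.3. The part of these shifts in the differences of the p53 genes was not tested, and in bulk libraries fewer cells of a type and less RNA per cell cannot be told apart.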

How the data were processed

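Poly(A) RNA of 4 libraries of CCE cells was sequenced as single-end reads, per the labels' protocols. The submitters' processing notes list HTSeq 0.11.2, Bowtie2 2.3.4.3, edgeR 3.26.8, SAMtools 1.9 and build mm9, without roles. For annotation release and strand setting, the sources used here give nothing. The deposited signal holds each gene's count over the library's effective size, as its values show, since 100% of them were whole multiples of 1 read within 0.001. Per the file headers, the authors' comparison gives a log2 fold change, a mean level in log2 CPM, a likelihood score and p-values with their adjusted form.

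Differences were fitted in limma 3.58.1 (R 4.3.3), with a variance trend, to log2(signal + 1), over the 14890 genes passing filterByExpr (edgeR 4.0.16) on recovered reads. Since 1 is added as a pseudocount, fold changes of low genes come out too small. Tests were two-sided with Benjamini-Hochberg adjustment over all genes tested and a threshold of 0.05; with 2 libraries a group the smallest p of an exact permutation test is 0.333. Alternatives covered scaling, pseudocount, filter, variance model, GC content, test, replicate block, depth and each library left out. edgeR's quasi-likelihood test on the recovered reads called 3742 genes, and limma 3418. The method was tested on simulated data, with the same dispersion in both groups and changes only in genes with many reads. That simulation cannot show how the fit does on scarce members or where the groups differ in spread. The members and lists were chosen with earlier results of these data known. Values are given for every member, for up to 4 genes of each other list that passed with the smallest p, and for the 2 markers of each list with the highest mean. The other tested fibroblast markers and the embryonic stem cell markers that fell are given as well, outside this rule. Intervals cover counting error only. GENCODE M21 (GRCm38) gave coordinates, length and GC content for 32590 genes, and none was converted from mm9. Of the other genes listed, Claspn, Rfwd2, Setd8, Ptprv and Sox1 were not matched by symbol.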

Additional observations from a re-analysis of the deposited data

How the results depend on the processing

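With pseudocounts of 0.5 and 3, the same 11 of the 38 genes passed. In edgeR's quasi-likelihood test all 11 passed with Perp in addition. Without a variance trend 7 of the 11 passed, while the calls over all genes tested went from 3418 to 1932. Library size only moved the median of all genes by 0.12 (log2). Of the 38 genes, the number that fell was 1 with library size only, with upper-quartile scaling, without a variance trend and after thinning to equal reads (chosen after seeing the data). Over all genes tested, 6.69%, 8.93%, 5.8% and 9.92% fell in these settings, in that order. Leaving out 1 library at a time gave 5 to 24 genes that rose and 1 to 7 that fell, while the number called among all genes went from 653 to 7724. The extremes that rose were 5 without knockdown 2 and 24 without control 1, against 17 without control 2, and those that fell were 7 without control 2. A fit without a control takes its spread from the libraries labelled knockdown alone. In the labels, same-numbered libraries share only a number, and their deviations correlated by 0.0356 across genes. With 1 pair of libraries in each group, this value cannot show whether they shared a culture or a batch. With this number as a replicate block, 15 members rose and 4 fell, against 15.1% and 16% of all genes tested. With GC correction and the block together 16 rose, against 11.9% of all genes tested.

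Other genes of the pathway that rose numbered 16 and those that fell 11. The fallen numbered 5 with library size only and 3 without a variance trend. Leaving out 1 library gave 9 to 34 that rose and 0 to 36 that fell. The median log2 difference of the members stayed between 0.16 and 0.40. With library size only that of feedback genes was 0.24 and of metabolic genes 0.29, and that of metabolic genes was 0.10 with GC correction, with or without the replicate block. Leaving out a library gave 0.22 to 0.54 for arrest genes, 0.33 to 0.66 for death genes and -0.21 to 0.39 for repair genes, where the value without control 2 was -0.21. Among genes that did not pass, some signs turned. With library size only the log2 difference was 0.0366 for Plk3, 0.10 for Gtse1, 0.11 for Aen and 0.0598 for Dppa5a. With upper-quartile scaling it was 0.0478 for Gtse1, 0.0548 for Aen and 0.0054 for Dppa5a. GC correction, with or without the replicate block, gave -0.0713 for Gls2, and thinning gave 0.0076 for Gtse1. Leaving out a library gave -0.14 to 0.3613 for Mdm4, -0.2154 to 0.0511 for Plk3, -0.0973 to 0.0551 for Gtse1, -0.0429 to 0.0149 for Aen, -0.0434 to 0.5863 for Trp53inp1, -0.21 to 0.4121 for Ercc5 and -0.2556 to 0.13 for Dppa5a. The cause was not tested. Depth limits the scarce members most, since control 2 held 4604200 reads and 3 reads there were worth 0.679 normalized counts.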
